A study of Homo sapiens with 9 samples.

Results

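The 40 genes described here encode the proteins that license, unwind and copy DNA in S phase, supply its nucleotides, or act on chromatin and damage at the replication fork. They were taken by symbol from a list of genes used to mark S phase in single cells, and all 40 were found among the 36601 genes of the count matrices. They were followed in U2OS cells, a human osteosarcoma line, in which RPB1, the largest subunit of RNA polymerase II, carried HaloTag (a self-labelling enzyme tag) or Dendra2 (a photoconvertible fluorescent protein) at its N-terminus. The tail of RPB1, the C-terminal domain (CTD) of heptad repeats, had 25, 52 or 70 repeats (25R, 52R and 70R), 52 being the human number. The 6 genotypes were HaloTag-RPB1 with 25R, 52R or 70R and Dendra2-RPB1 with 25R, 52R or 70R. All 6 had been kept for 6 days in 1 µg/ml α-amanitin, a toxin that targets this polymerase. No library lacked the drug, so whether it acted on the tagged RPB1 or on the transcript levels was not tested. Each genotype was a single library, so clone, culture and library cannot be told apart from genotype, and each HaloTag library stands in the labels as 2 numbered samples with 1 deposited matrix and each Dendra2 library as 1 sample, a difference in handling that cannot be told apart from the tag. The p-values below therefore measure how far the tag difference varied between CTD lengths, and the reverse, not the spread between cultures.

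A cell copies its genome once per cycle. In late mitosis and G1 the MCM helicase is loaded at origins by CDC6 and its partners, and at the G1/S boundary E2F transcription factors, released from RB proteins, switch on the genes for the helicase, the polymerases, the clamp PCNA and the enzymes that make deoxynucleotides. Transcripts of this group are thus periodic: they build up around the start of S phase and decline before mitosis, when another set, the G2/M transcripts, is at its height.

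Promoter sequences are shown for the 4 genes whose transcript levels varied most between cells of the libraries (described further on) among those with a sequence in the table used. They run from 250 bases before to 50 bases after the start site in RefSeq (GRCh38.p14), 5′ to 3′ on the strand of the gene. Capitals mark the letters searched for on both strands: the E2F words TTTCCCGC, TTTCGCGC, TTTGCCGC and TTTGGCGC, and the CCAAT box. EXO1, an exonuclease of mismatch repair and resection, lies at chr1:241847954-241848253 on the plus strand. DTL, which delivers substrates bound to PCNA to a ubiquitin ligase, lies at chr1:212035498-212035797 on the plus strand. CDC45, a subunit of the active helicase, lies at chr22:19479670-19479969 on the plus strand, and BRIP1, a helicase of the Fanconi pathway, at chr17:61863479-61863778 on the minus strand.
EXO1: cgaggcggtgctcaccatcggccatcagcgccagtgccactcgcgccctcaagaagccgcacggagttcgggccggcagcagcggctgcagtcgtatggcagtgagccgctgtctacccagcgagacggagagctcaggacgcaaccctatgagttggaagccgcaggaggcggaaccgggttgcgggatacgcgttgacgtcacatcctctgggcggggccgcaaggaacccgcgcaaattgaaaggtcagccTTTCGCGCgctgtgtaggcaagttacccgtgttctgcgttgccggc
DTL: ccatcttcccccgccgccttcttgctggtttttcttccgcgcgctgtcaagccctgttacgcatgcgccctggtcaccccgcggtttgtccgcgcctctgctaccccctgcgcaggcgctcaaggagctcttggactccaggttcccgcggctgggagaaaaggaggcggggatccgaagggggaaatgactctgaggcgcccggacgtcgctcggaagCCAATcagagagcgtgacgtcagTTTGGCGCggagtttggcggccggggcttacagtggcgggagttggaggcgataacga
CDC45: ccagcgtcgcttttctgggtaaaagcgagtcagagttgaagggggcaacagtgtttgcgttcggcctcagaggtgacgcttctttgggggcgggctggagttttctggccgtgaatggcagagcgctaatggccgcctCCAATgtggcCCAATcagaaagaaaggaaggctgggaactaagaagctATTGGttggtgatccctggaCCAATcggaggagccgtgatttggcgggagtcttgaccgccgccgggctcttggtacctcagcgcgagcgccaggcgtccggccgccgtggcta
BRIP1: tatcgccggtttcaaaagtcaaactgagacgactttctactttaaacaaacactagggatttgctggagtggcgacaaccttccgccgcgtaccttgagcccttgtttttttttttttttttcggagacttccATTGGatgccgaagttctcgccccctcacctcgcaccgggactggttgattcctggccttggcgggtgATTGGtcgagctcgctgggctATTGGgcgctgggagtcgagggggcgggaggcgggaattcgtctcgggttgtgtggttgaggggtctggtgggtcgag
EXO1 had TTTCGCGC starting 4 bases after the start site and no CCAAT. DTL had TTTGGCGC starting 8 bases before it, beside 1 CCAAT box. CDC45 and BRIP1 held none of the E2F words, and 4 and 3 CCAAT boxes, so no word was common to all 4. The table held 31 of the 40 genes. The others were MCM4, MCM5, CCNE2, ATAD2, DSCC1, RPA2, POLD3, WDR76 and E2F8. An E2F word was present in 16 of the 31, against 3.33% of all 27305 promoters in the table, and CCAAT in 23 of 31, against 35.7%. The CHR words TTTGAA and TTCGAA, known from G2/M promoters, were present in 3 of 31, against 16.6%. No E2F word overlapped a CCAAT box in the sequences shown.

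Unique molecular identifiers (UMIs), which count captured transcripts, were read at the 3′ ends of transcripts. After quality filters the libraries held 3483, 3705 and 4677 cells for HaloTag 25R, 52R and 70R, and 3121, 2747 and 2718 for Dendra2 25R, 52R and 70R, with 52553686 to 58442223 UMIs each. The median cell had 16020, 13567 and 10812 UMIs in the HaloTag libraries and 15770, 18256 and 18739 in the Dendra2 libraries. The medians of the 25R pair were therefore close, and those of the 52R and 70R pairs were not. The median mitochondrial share was 6.85%, 8.86% and 9.08% in HaloTag and 5.99%, 6.13% and 5.41% in Dendra2 libraries, which did not overlap, and its part in the tag differences was not tested. Values per cell were compared after thinning every cell to 5000 UMIs, which left out 34 to 217 cells a library. The labels call the cells epithelial. Of the 8 epithelial markers, KRT8 had 144 to 551 CPM (UMIs per 1000000 UMIs) and KRT18 had 699 to 1266 CPM over the libraries. The others reached at most 8.56 CPM in any library, with EPCAM at most 7.65 and CDH1 at most 0.43 CPM. The 8 summed to 1034 to 1571 CPM in HaloTag and 848 to 1565 CPM in Dendra2 libraries. Of the 8 osteoblast and mesenchymal markers 6 had UMIs in all libraries, while COL1A2 and TWIST1 were at or near 0. The 8 summed to 2957 to 4087 CPM in HaloTag and 2956 to 3371 CPM in Dendra2 libraries. Most of this was VIM, at 2554 to 3784 CPM in HaloTag and 2707 to 2926 CPM in Dendra2 libraries, and ALPL reached at most 5.2 CPM. The 8 leukocyte markers summed to 0.50 to 2.52 CPM in HaloTag and 0.28 to 0.46 CPM in Dendra2 libraries. Between 0 and 7 cell barcodes were shared by any 2 libraries.

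Cells with almost no replication transcripts were several times more frequent in the HaloTag than in the Dendra2 libraries. At 5000 UMIs per cell the summed UMIs of the 40 genes had a median of 13, 14 and 12 in the HaloTag libraries and 16, 18 and 16 in the Dendra2 libraries. The lowest 10% of cells had at most 3, 3 and 2 such UMIs in HaloTag and 7, 7 and 5 in Dendra2 libraries, while the upper 10% began at 25, 31 and 29 in HaloTag and at 26, 29 and 27 in Dendra2 libraries. The tags were thus apart at the low end and at the median of the distribution, and interleaved at its upper end. Cells with at most 3 replication UMIs made up 13.4%, 14.3% and 16.5% of HaloTag cells and 3.68%, 3.65% and 5.86% of Dendra2 cells. The groups did not overlap. The means were 14.7% ± 1.60 in HaloTag and 4.39% ± 1.27 in Dendra2 libraries (SD, n = 3 each), and the limit of 3 UMIs was chosen after the data were seen. With a limit of 5 UMIs the shares were 22.4%, 22.6% and 26.7% in HaloTag and 7.38%, 7.52% and 10.5% in Dendra2 libraries.

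**Figure D1:**
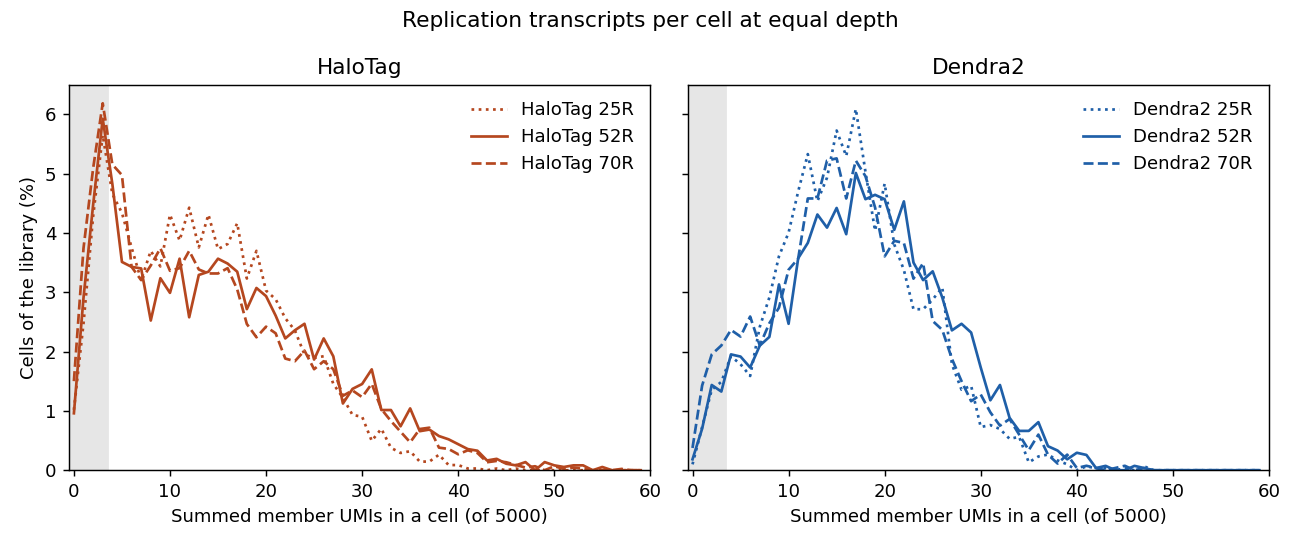
Share of cells (%, vertical axis) by the number of UMIs of the 40 replication genes in the cell after thinning to 5000 UMIs (horizontal axis), for the 3 HaloTag libraries on the left and the 3 Dendra2 libraries on the right, with at most 3 UMIs shaded. Each HaloTag library has a peak inside the shaded band, which holds 13.4% to 16.5% of its cells, and the Dendra2 libraries have 3.65% to 5.86% there.

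Cells with few replication UMIs were also poor in G2/M transcripts. Over 52 G2/M transcripts they had a median of 4, 4 and 5 UMIs in the HaloTag libraries and 6, 4 and 5 in the Dendra2 libraries, against 29, 30 and 33 in the other HaloTag cells and 33, 35 and 34 in the other Dendra2 cells. They were also somewhat shallower before thinning, with medians of 13204, 10696 and 8614 UMIs in HaloTag and 11876, 14508 and 13390.5 in Dendra2 libraries, against 16568.5, 14123.5 and 11543 in the other HaloTag cells and 16278, 18513 and 19251 in the other Dendra2 cells. The part of depth and of cell size in these shares was not tested. Over all cells, a mean of 8.83, 9.50 and 9.16 of the 40 genes were detected per HaloTag cell and 10.3, 11.1 and 10.5 per Dendra2 cell. The genes took 0.303% ± 0.0259 of all UMIs in HaloTag and 0.346% ± 0.0196 in Dendra2 libraries (SD, n = 3 each). A UMI of any of the 40 was found in 98.5% to 99.0% of HaloTag and 99.6% to 99.9% of Dendra2 cells. In each of these values, and in the share of cells above the common median of G2/M transcripts given later, no HaloTag library overlapped a Dendra2 library. All 5 had a two-sided exact permutation p = 0.1, the smallest that 3 against 3 libraries can give, and 0.1 after adjustment over the 5. The shares of cells with at most 3 replication UMIs and above the G2/M median were added after the data were seen.

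Summed over cells, most replication genes were lower in HaloTag than in Dendra2 libraries by less than the test could call. The median log2 difference of the 40 genes was -0.28, against 0.03 over all 18069 genes tested, and 29 of 40 were below 0, against 47.5% of all genes. It was below 0 for each CTD length, at -0.38 for the 25R pair, -0.24 for 52R and -0.17 for 70R, and 25 of 40 genes were below 0 in every pair, against 21.2% of all genes. All 40 passed the filter on low counts, and 0 of 40 were called by edgeR at an adjusted p under 0.05, where 0.26% of all genes were. Unadjusted p-values under 0.05 were found for 15 of the 40, all lower in HaloTag, against 19.5% of all genes in either direction and 9.13% lower. Leaving out a library gave 3 such genes for HaloTag 52R, 4 for Dendra2 52R, 9 for either 25R and 11 for either 70R library, all lower. The shares of all genes in those fits are not given here, so these counts cannot be set against them. DESeq2 called 2, CLSPN (adjusted p = 0.0095) and MCM2 (adjusted p = 0.046), where it called 6.25% of all genes. In 15 genes every HaloTag library was below every Dendra2 library, against 11.6% of all genes, and in 1, CCNE2, every HaloTag library was above, against 12.7%. In such sums a smaller number of cells with the transcripts and less RNA per cell cannot be told apart.

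Among the 11 genes of helicase and origin licensing 9 were below 0, with a median of -0.28. MCM2, a subunit of the ring-shaped replicative helicase, had 18.9, 24.1 and 21.8 CPM in the HaloTag libraries with 25R, 52R and 70R, and 31.7, 31.9 and 28.7 CPM in the Dendra2 libraries with 25R, 52R and 70R. Values below follow this order of CTD lengths. Every HaloTag library lay below every Dendra2 library, and the log2 difference was -0.51 (SE 0.14, edgeR adjusted p = 0.154). GMNN, or geminin, which blocks relicensing by binding CDT1, had 53.5, 74.7 and 74.2 CPM in HaloTag and 86.8, 99.7 and 90.1 CPM in Dendra2 libraries. The HaloTag 25R library was the lowest, the groups did not overlap, and the log2 difference was -0.47 (SE 0.13, edgeR adjusted p = 0.159). MCM4, another helicase subunit, had 79.1, 63.0 and 54.7 CPM in HaloTag and 86.1, 96.2 and 82.3 CPM in Dendra2 libraries. Here the 25R libraries lay close together and the others apart, with a log2 difference of -0.44 (SE 0.15, edgeR adjusted p = 0.192). The subunits of the ring were not alike in this: MCM3 had 117.9, 124.1 and 119.7 CPM in HaloTag and 117.5, 122.9 and 120.3 CPM in Dendra2 libraries (log2 difference 0.004), and MCM6 and MCM7 were at -0.08 and -0.15. CDC45 was at -0.43, MCM5 and GINS2, of the GINS complex that joins CDC45 and MCM in the active helicase, at -0.28, CDC6, the helicase loader, at -0.11 and DTL at 0.06.

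Of the 8 genes of polymerases, primase, clamp and flap processing 5 were below 0 (median -0.25). FEN1, which cuts Okazaki flaps, was at -0.32, RFC2, a subunit of the clamp loader, at -0.31, DSCC1, of an alternative loader that acts in cohesion, at -0.39, RPA2, of the single-strand binding complex, at -0.25 and POLA1, the catalytic subunit of polymerase α, at -0.24. PCNA, the sliding clamp, was at 0.008, POLD3, of polymerase δ, at 0.04 and PRIM1, the primase, at 0.11. The 3 genes of nucleotide supply divided in the same manner: TYMS (thymidylate synthase) was at -0.39 and RRM2, the regulated subunit of ribonucleotide reductase, at -0.34, and RRM1, its large subunit, at 0.06. In chromatin assembly and remodelling 5 of 7 were below 0 (median -0.32). HELLS, a chromatin remodeller, was at -0.41, NASP, a histone chaperone, at -0.39 and ATAD2, a bromodomain ATPase, at -0.38. UBR7 and CDCA7 were at -0.32 and -0.24. UHRF1, which guides maintenance methylation, and CHAF1B, of the CAF-1 histone chaperone, were at 0.05 and 0.03.

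Fork checkpoint and repair genes had 7 of 9 below 0 (median -0.27). CLSPN, or claspin, the mediator that lets ATR activate CHK1 at stalled forks, had 106.8, 125.7 and 117.7 CPM in HaloTag and 168.8, 180.5 and 158.3 CPM in Dendra2 libraries. It was the furthest apart of the 40, with a log2 difference of -0.54 (SE 0.12, edgeR adjusted p = 0.123) that was -0.66 between the 25R libraries, -0.52 between the 52R and -0.43 between the 70R libraries. UNG, the glycosylase that removes uracil from DNA, had 16.4, 18.5 and 18.6 CPM in HaloTag and 26.3, 25.5 and 23.4 CPM in Dendra2 libraries, a log2 difference of -0.49 (SE 0.14, edgeR adjusted p = 0.160) without overlap. WDR76, a WD-repeat protein bound to chromatin, had 14.8, 20.04 and 14.9 CPM in HaloTag and 19.9, 30.8 and 19.0 CPM in Dendra2 libraries. HaloTag 52R lay above the 25R and 70R libraries of Dendra2, so the groups overlapped, and the log2 difference was -0.46 (SE 0.14, edgeR adjusted p = 0.166). EXO1 was at -0.27, USP1, which removes ubiquitin from PCNA and FANCD2, at -0.24 and TIPIN, of the fork protection complex, at -0.15. BLM and BRIP1, helicases of fork repair, were at 0.18 and 0.06. The 2 genes of G1/S transcription and cyclins lay on opposite sides. CCNE2, or cyclin E2, which drives entry into S phase with CDK2, had 14.3, 14.8 and 17.2 CPM in HaloTag and 11.6, 13.8 and 11.2 CPM in Dendra2 libraries, the only one of the 40 with all HaloTag libraries above (log2 difference 0.34, SE 0.16, edgeR adjusted p = 0.308). E2F8, a repressor of E2F targets, was at -0.35 and under 10 CPM.

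**Figure D2:**
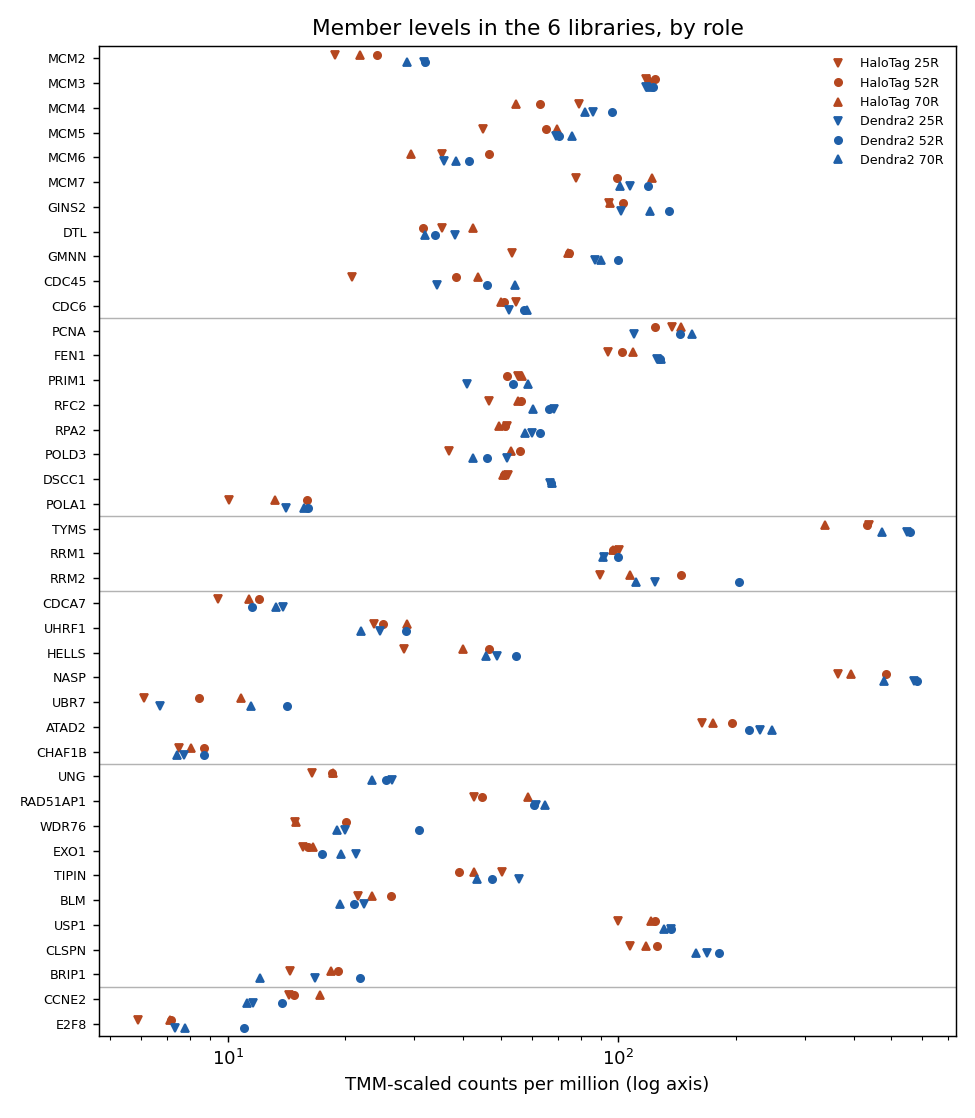
Level of each of the 40 genes (rows, grouped by role with lines between groups) in CPM on a log axis, in HaloTag (orange) and Dendra2 (blue) libraries, with the marker shape giving the CTD length. Orange lies left of blue without overlap in 15 rows, CLSPN and MCM2 among them, coincides with it for MCM3, and lies right of it for CCNE2.

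Neighbouring genes limit some of these values: 8 of the 40 share exon bases with another annotated gene on the same strand, among them FEN1, HELLS, PRIM1 and MCM7, and 15 with one on the opposite strand, among them MCM2, CLSPN and CCNE2. The sources used here do not say how such bases were counted.

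The tag difference was larger in cells poor in G2/M transcripts and was near 0 in cells rich in them. Cells were divided at the median of all libraries, 29 of 5000 UMIs from the 52 G2/M transcripts, and summed separately. The cells above it made up 43.4%, 43.9% and 44.6% of HaloTag and 56.0%, 59.9% and 57.6% of Dendra2 cells. In cells low in G2/M transcripts the 40 genes summed to 2172, 2415 and 2171 CPM in HaloTag and 3155, 3398 and 2947 CPM in Dendra2 libraries. In cells high in them the sums were 3432, 4153 and 3801 CPM in HaloTag and 3423, 3834 and 3624 CPM in Dendra2 libraries. The groups were apart in the low cells and interleaved in the high cells. The low cells numbered 1944, 2044 and 2471 in HaloTag and 1329, 1087 and 1130 in Dendra2 libraries. Cells with at most 3 replication UMIs numbered 461, 520 and 737 in HaloTag and 111, 99 and 156 in Dendra2 libraries. Their median of 4 to 6 G2/M UMIs puts most of them among the low cells. This result is thus not separate from their share given above, and their part in it was not tested.

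In low cells 40 of 40 genes were below 0, against 46.6% of the 16129 genes tested there, with a median log2 difference of -0.47, against 0.04 over all genes. CLSPN, ATAD2 and RRM2 fell past the threshold in HaloTag cells, 3 of 40 where 1.2% of all genes were called and 0.651% were called lower, and 26 of 40 had an unadjusted p under 0.05, against 22.7%. CLSPN had 77.5, 91.3 and 84.6 CPM in HaloTag and 155.3, 165.5 and 135.6 CPM in Dendra2 low cells, so the highest HaloTag value was well under the lowest Dendra2 value, and fell by 0.93 on the log2 scale (SE 0.14, edgeR adjusted p = 0.0439). ATAD2 had 117.3, 134.6 and 114.2 CPM in HaloTag and 203.6, 194.3 and 205.5 CPM in Dendra2 low cells, again apart, and fell by 0.81 (SE 0.13, edgeR adjusted p = 0.0464). RRM2 had 51.9, 57.4 and 43.1 CPM in HaloTag and 87.9, 143.2 and 73.9 CPM in Dendra2 low cells, with the 52R libraries highest under each tag, and fell by 1.04 (SE 0.17, edgeR adjusted p = 0.0474).

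The calls depended on the libraries, and the direction less so. Leaving out each library in turn, an alternative added after seeing the data, gave 0 calls in low cells without HaloTag 52R or Dendra2 52R (0.186% and 0.166% of all genes called), 2 without HaloTag 70R or Dendra2 70R (1.01% and 1.1%) and 4 without HaloTag 25R or Dendra2 25R (2.16% and 2.22%), while 39 or 40 of the 40 genes stayed below 0 with medians of -0.47 to -0.60. The G2/M transcripts used for the division were themselves lower in HaloTag low cells, with 50 of 52 below 0 and a median of -0.76. Of the 52, 9 were called, where 1.2% of all genes were. The low cells of the tags were thus not alike in G2/M content, and its part in the difference was not tested. In high cells 19 of 40 were below 0, against 48.1% of all genes, with a median of 0.003, and 0 of 40 were called by edgeR, where 0.129% of 16289 genes were. There 5 of 40 had an unadjusted p under 0.05, 4 higher and 1 lower in HaloTag, against 14.8% of all genes. CLSPN had 140.5, 171.9 and 155.7 CPM in HaloTag and 162.0, 181.3 and 170.0 CPM in Dendra2 high cells, which overlapped. CCNE2 stood highest at 0.71 (SE 0.15, edgeR adjusted p = 0.199), with 15.6, 17.4 and 18.2 CPM in HaloTag and 9.55, 10.4 and 9.86 CPM in Dendra2 high cells. The difference between low and high cells was not itself tested.

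**Figure D3:**
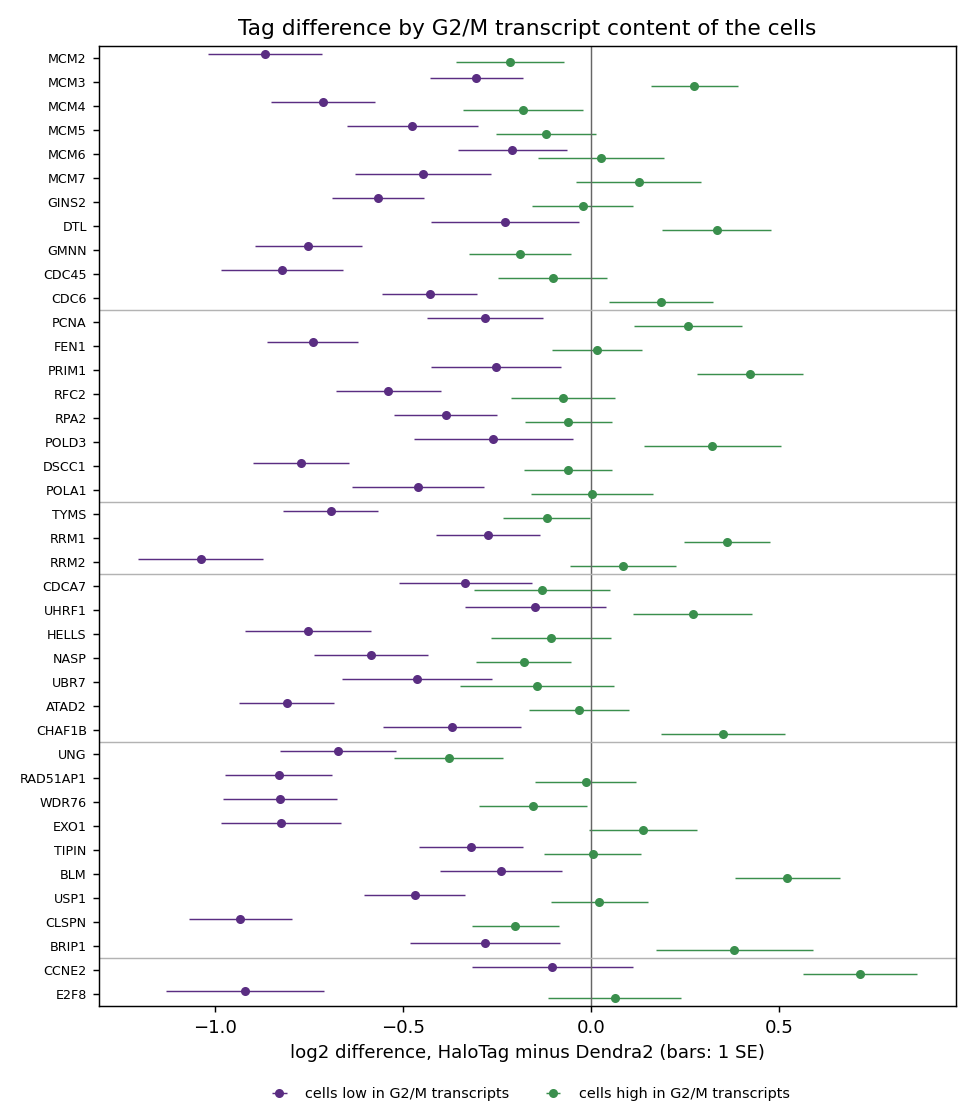
Log2 difference of HaloTag minus Dendra2 libraries for each of the 40 genes (rows, by role) in cells low in G2/M transcripts (purple) and in cells high in them (green), with bars of 1 SE from edgeR. All 40 purple points are left of 0, down to -1.04 for RRM2, while 19 green points are left of it and CCNE2 reaches 0.71.

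The replication genes differed more steeply between cells under HaloTag. For each gene, its mean in the 25% of cells richest in the other 39 was divided by its mean in the poorest 25%, at 5000 UMIs per cell. The median of this ratio over the 40 genes was 6.77, 9.34 and 8.32 in the HaloTag libraries and 2.73, 3.18 and 3.42 in the Dendra2 libraries, against 1.03 to 1.04 for 9706 genes outside these lists in every library. In 37 of 40 genes each HaloTag ratio was above each Dendra2 ratio, against 16.2% of those other genes. The exceptions were CDCA7, a chromatin remodelling partner of HELLS, UBR7, a histone ubiquitin ligase, and TIPIN. These ratios describe the cells and carry no test. The poorest 25% take in most cells with at most 3 replication UMIs, 13.4% to 16.5% of HaloTag and 3.65% to 5.86% of Dendra2 cells. The ratios are thus not separate from those shares.

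DTL had ratios of 29.6, 71.8 and 53.7 in HaloTag and 3.49, 5.24 and 5.33 in Dendra2 libraries. In HaloTag 25R its mean was 0.310 UMIs in the rich and 0.0105 in the poor cells, and in Dendra2 25R 0.291 and 0.0834, so that the poor cells differed more than the rich. CLSPN had ratios of 16.6, 26.3 and 35.7 in HaloTag and 3.25, 4.33 and 5.47 in Dendra2 libraries, and EXO1 had 41.3, 54.7 and 33.4 in HaloTag and 7.33, 5.44 and 5.87 in Dendra2 libraries. CDC45, at 21.3, 25.6 and 22.3 in HaloTag and 2.65, 3.57 and 5.15 in Dendra2 libraries, was likewise without overlap. At the other end RPA2 had 2.30, 3.70 and 3.54 in HaloTag and 1.56, 1.83 and 1.87 in Dendra2 libraries. The high ratios rest on few UMIs in the poor cells, which in the library with the fewest were 2 for CCNE2 and for BRIP1, 3 for EXO1 and 4 for DTL, and 41 for CLSPN. With the upper and lower 10% of cells in place of 25% the medians were 10.3, 17.2 and 12.0 in HaloTag and 5.43, 6.12 and 7.61 in Dendra2 libraries, and 23 of 40 genes were without overlap. The share of other genes without overlap was not computed at 10%, so this count has no background.

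The tags also differed when cells were ranked by G2/M transcripts in place of replication transcripts. Cells with few replication UMIs, which were poor in G2/M transcripts too, enter this ranking as well, and their part was not tested. The median ratio of the richest to the poorest 25% of cells was 4.25, 4.21 and 3.86 in HaloTag and 1.24, 1.22 and 1.64 in Dendra2 libraries, and 40 of 40 genes were higher in every HaloTag library, against 14.5% of other genes. With 10% this held for 12 of 40, with medians of 5.17, 5.06 and 3.66 in HaloTag and 2.05, 3.25 and 3.54 in Dendra2 libraries, so the separation depended on the fraction of cells taken. Here too the share of other genes was not computed at 10%. In the HaloTag libraries 0 of 40 genes had a lower level in the G2/M-rich cells, while in the Dendra2 libraries 11, 12 and 4 did. UNG, MCM5, MCM6 and CCNE2 were lower there in all 3 Dendra2 libraries: CCNE2 had ratios of 3.75, 4.23 and 2.71 in HaloTag and 0.44, 0.32 and 0.30 in Dendra2 libraries. Replication and G2/M UMIs of a cell had a correlation of 0.444, 0.348 and 0.335 in HaloTag and 0.0904, 0.0788 and 0.207 in Dendra2 libraries, over 3433, 3644 and 4460 and 3020, 2713 and 2662 cells that share a library and were thinned alike.

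**Figure D4:**
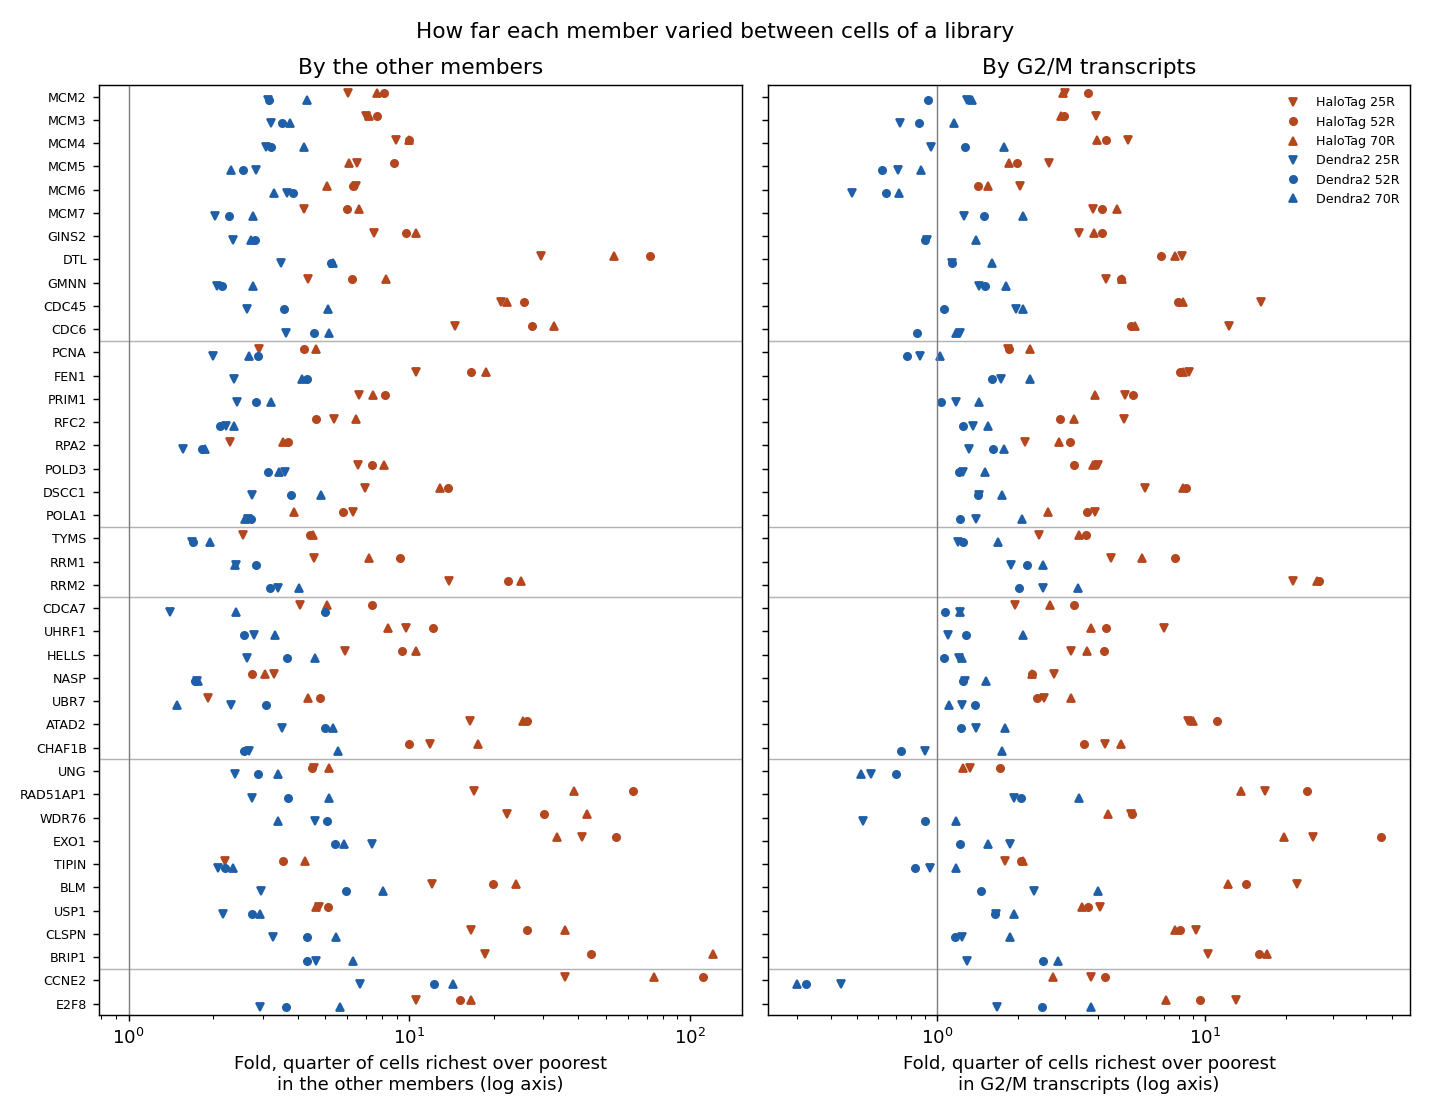
Ratio of each gene's mean UMIs in the richest over the poorest 25% of cells (log axis), with cells ranked by the other replication genes (left) or by G2/M transcripts (right), in HaloTag (orange) and Dendra2 (blue) libraries, with marker shape for CTD length and a line at 1. Orange points lie to the right, with library medians of 6.77 to 9.34 against 2.73 to 3.42 on the left panel, and blue points of CCNE2, UNG, MCM5 and MCM6 lie under 1 on the right panel.

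Pairs of replication genes were correlated weakly over cells, and more so in HaloTag cells. The median over 780 pairs was 0.0703, 0.103 and 0.102 in HaloTag and 0.0421, 0.0531 and 0.0504 in Dendra2 libraries. The strongest pair was CLSPN and ATAD2, with 0.301, 0.388 and 0.396 in HaloTag and 0.189, 0.254 and 0.265 in Dendra2 libraries. These are sparse counts of cells that share a library, given as a description.

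The authors' kinetic tables describe the same spread in another way. They give, per gene and library, a mean and a parameter K from a beta-Poisson fit over cells. K, in a unit that the sources used here do not give, is taken as the frequency of transcription bursts, and the mean divided by K as their size. K was not scaled for depth, and GINS2, of the helicase, had no record in Dendra2 25R, which leaves 39 genes.

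In 39 of 39 genes K was lower in HaloTag than in Dendra2 by the fitted difference, against 50.1% of the 21166 genes tested. The median was -0.24 on the log10 scale, against -0.001 over all genes. Every HaloTag K was below every Dendra2 K in 32 of 39, against 7.67% of all genes. The other 7 were MCM2, PCNA, TYMS, CDCA7, UBR7, UNG and POLA1. limma called 0 of 39 at an adjusted p under 0.05, where it called 0% of all genes, and gave 3 of 39 an unadjusted p under 0.05, against 5.64%. DTL had a K of 0.76, 0.73 and 0.64 in HaloTag and 1.60, 2.11 and 1.46 in Dendra2 libraries, a log10 difference of -0.38 (SE 0.12, limma adjusted p = 0.843). Its HaloTag values were closely grouped and all lay under 1, and its Dendra2 values were all above 1. EXO1 had 0.59, 0.54 and 0.46 in HaloTag and 1.47, 1.26 and 1.06 in Dendra2 libraries (log10 difference -0.38, SE 0.13). DSCC1 had 1.17, 0.93 and 0.91 in HaloTag and 2.22, 2.22 and 2.05 in Dendra2 libraries (-0.34, SE 0.11), and CLSPN 0.90, 0.70 and 0.67 in HaloTag and 1.70, 1.72 and 1.46 in Dendra2 libraries (-0.33, SE 0.12). In each of these the groups were apart and HaloTag 25R was the highest HaloTag value. RRM2 and ATAD2 were next, both at -0.33. CHAF1B and UBR7, at -0.52 and -0.40, had limits of K that were wide in the authors' tables.

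With the fit restricted to 4355 genes of at least 0.5 UMIs per cell on average over the libraries, 26 of the 40 remained, and 18 of the 26 were called, all lower in HaloTag, where 2.82% of these genes were called and 2.57% lower. They spanned the roles and included DTL, CDC6, CDC45, GMNN, MCM3, MCM4, MCM5 and MCM7, then FEN1, POLD3 and DSCC1, RRM1 and RRM2, ATAD2 and HELLS, and CLSPN and USP1. DTL had the largest of these differences (-0.38, SE 0.06, limma adjusted p = 0.0104). Centred on each library's median, 10 of 26 were called, where 1.24% were. The calls did not hold without single libraries: 0 were called without HaloTag 25R or Dendra2 25R (0% of genes called in each), 2 and 1 without HaloTag 52R or Dendra2 52R (0.964% and 0.689% of genes called), and 5 and 2 without HaloTag 70R or Dendra2 70R (0.827% and 0.482%), all 26 staying below 0. Centring and these omissions were chosen after seeing the data.

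Burst size was less separated. In HaloTag 32 of 39 genes were above 0, with a median log10 difference of 0.08, against -0.09 over all genes, of which 63.7% were below 0. limma called 0 of 39, where 0.0945% of all genes were called, and 3 of 39 had an unadjusted p under 0.05, against 8.23%. Among the genes of at least 0.5 UMIs per cell it called DTL (0.31, SE 0.08, limma adjusted p = 0.0103), where 10.4% of genes were called and 9.85% were called lower, and 10 of 26 after centring, where 3.24% were. A direct estimate from the counts, the squared mean over the variance in excess of the mean at 5000 UMIs per cell, was added after seeing the data. It was taken for genes with a value in every library and a mean of at least 0.1 UMIs per thinned cell over the libraries. That left 29 of the 40 genes and 3464 genes in all. Every HaloTag library was below every Dendra2 library in 23 of the 29, against 14.2% of the 3464. DTL had 1.23, 0.63 and 0.83 in HaloTag and 3.90, 2.72 and 4.03 in Dendra2 libraries.

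**Figure D5:**
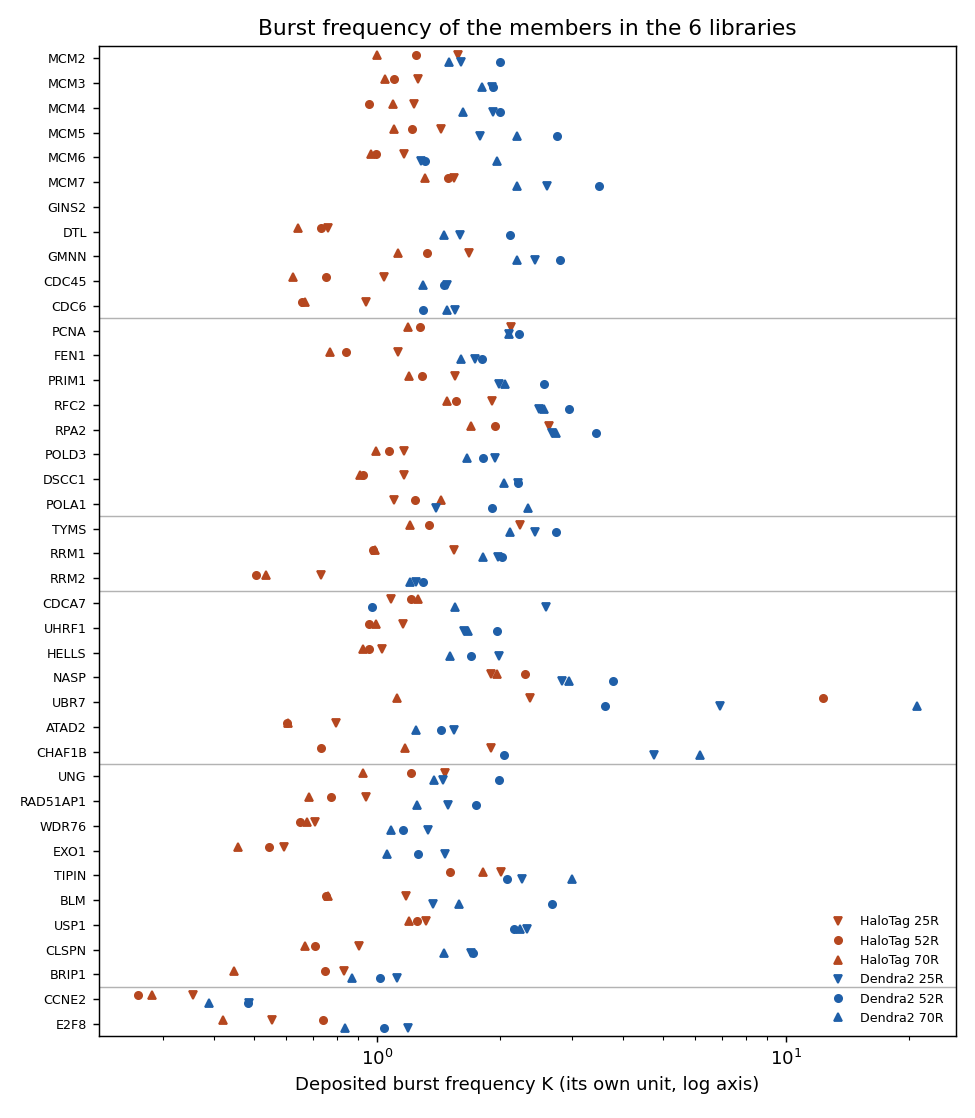
Burst frequency K from the authors' tables (horizontal log axis, in its own unit) for each gene (rows, by role) in HaloTag (orange) and Dendra2 (blue) libraries, with the marker shape giving the CTD length; GINS2 has no complete record. Orange lies left of blue without overlap in 32 of 39 rows, DTL, EXO1 and CLSPN among them, and UBR7 and CHAF1B scatter widely.

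Among genes of at least 10 CPM the CTD comparisons were led by single genes, RRM2 and CDC45, and edgeR called none of the 40 in them. With 25R against 52R, 35 of 40 genes were below 0, against 49.3% of all genes, with a median log2 difference of -0.15, against 0.008. The median was -0.24 in the HaloTag and -0.11 in the Dendra2 pair, and 21 of 40 were below 0 in both, against 29.8% of all genes. Leaving out HaloTag 25R gave a median of -0.08 with 31 genes below 0, and leaving out Dendra2 25R gave -0.23 with 29. edgeR called 0 of 40, where 0.0443% of all genes were called. Unadjusted p-values under 0.05 were found for 4 of 40, all lower in 25R, against 12.7% of all genes and 6.6% lower, and DESeq2 called 1, RRM2 (adjusted p = 0.038), where it called 2.71% of genes. RRM2 had 89.7 CPM in HaloTag 25R and 144.6 in HaloTag 52R, and 124.2 CPM in Dendra2 25R and 203.5 in Dendra2 52R. The 25R library was the lower of each pair by a similar amount, with a log2 difference of -0.70 (SE 0.17, edgeR adjusted p = 0.254). CDC45 had 20.7 CPM in HaloTag 25R and 38.4 in HaloTag 52R, and 34.3 CPM in Dendra2 25R and 46.1 in Dendra2 52R (log2 difference -0.65, SE 0.18, edgeR adjusted p = 0.275). WDR76 was at -0.53, HELLS and POLA1 at -0.43 and BRIP1 at -0.39. UBR7, under 10 CPM on average, was the furthest apart of the 40, at -0.79 (SE 0.24, edgeR adjusted p = 0.298). For HELLS and POLA1 the HaloTag pair (-0.72 and -0.66) carried more of the difference than the Dendra2 pair (-0.16 and -0.19).

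For 70R against 52R, 26 of 40 genes were below 0, against 50.7% of all genes, with a median of -0.07, against -0.005. The median was -0.03 in the HaloTag and -0.13 in the Dendra2 pair, and 21 of 40 were below 0 in both, against 29.1% of all genes. It was -0.16 without HaloTag 70R, -0.04 without HaloTag 52R and -0.03 without Dendra2 70R, with 31, 27 and 21 genes below 0. edgeR called 0 of 40, where it called 0% of all genes, and DESeq2 called 0, where it called 0.371%. Unadjusted p-values under 0.05 were found for 2 of 40, both lower in 70R, against 4.63% of all genes and 2.61% lower. They were those of RRM2 and WDR76. RRM2 had 106.9 CPM in HaloTag 70R and 144.6 in HaloTag 52R, and 110.9 CPM in Dendra2 70R and 203.5 in Dendra2 52R, so that 52R was the highest CTD length under each tag (log2 difference -0.65, SE 0.17, edgeR adjusted p = 0.961). WDR76, at 14.9 CPM in HaloTag 70R and 20.04 in HaloTag 52R and 19.0 CPM in Dendra2 70R and 30.8 in Dendra2 52R, had the same order (-0.56, SE 0.17, edgeR adjusted p = 0.961). BRIP1 was at -0.43, nearly all from the Dendra2 pair, and MCM6 at -0.38, nearly all from the HaloTag pair. TYMS and NASP were at -0.30 and -0.28.

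For 70R against 25R, 12 of 40 were below 0, against 51.9% of all genes, with a median of 0.04, against -0.02. This direction rested on single libraries. The median was 0.20 in the HaloTag and -0.06 in the Dendra2 pair, and 13 of 40 were above 0 in both, against 26.5% of all genes, and 5 below, against 29.9%. Leaving out HaloTag 70R gave a median of -0.04 with 21 genes below 0, and leaving out HaloTag 25R gave -0.001 with 20. Leaving out Dendra2 25R gave 0.13 with 10, and leaving out Dendra2 70R gave 0.14 with 7. In cells low in G2/M transcripts it was -0.03, with 24 below 0, and in cells high in them 0.09, with 8 below 0. edgeR called 0 of 40, where it called 0% of all genes. Unadjusted p-values under 0.05 were found for 2 of 40, CDC45 and UBR7, both higher in 70R, against 12.3% of all genes and 6.19% higher and 6.07% lower, and DESeq2 called 1, CDC45 (adjusted p = 0.008), where it called 2.48%. CDC45 had 43.6 CPM in HaloTag 70R and 20.7 in HaloTag 25R, and 54.3 CPM in Dendra2 70R and 34.3 in Dendra2 25R. Its order was 25R, 52R, 70R from low to high under each tag, and the log2 difference was 0.86 (SE 0.18, edgeR adjusted p = 0.234). Of the 6 edgeR fits without a single library, 1 called it, that without Dendra2 25R (1.07, adjusted p = 0.0456), where 2.81% of genes were called and 25R was a lone library assumed to vary like the others. In the other 5 the adjusted p was 0.219 to 0.671. UBR7, under 10 CPM on average, was at 0.80. MCM5 was at 0.38 and MCM7 at 0.29, and MCM4 at -0.31, TIPIN at -0.30 and TYMS at -0.29. For MCM7 the pairs disagreed, with 0.65 in HaloTag and -0.09 in Dendra2. The 3 CTD comparisons share libraries and are not independent of one another. Burst frequency and burst size gave 0 of 39 calls by limma in each of them, where at most 0.0189% of genes were called. Unadjusted p-values under 0.05 were found for 0 of 39 frequencies in each, against 5.77% of all genes in 25R against 52R, 5.39% in 70R against 52R and 5.89% in 70R against 25R. For sizes it was 2 of 39 in 25R against 52R (4.47% of all genes), 2 in 70R against 52R (3.12%) and 1 in 70R against 25R (4.12%).

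Replication genes outside the 40 lay on the same side for the tag. Of 45 further genes of the replication machinery 35 were below 0 in HaloTag, against 47.5% of all genes, with a median log2 difference of -0.24. edgeR called 0 of the 45, with 14 lower and 2 higher at an unadjusted p under 0.05, against 9.13% of all genes lower and 10.3% higher. In cells low in G2/M transcripts 41 of 45 were below 0, against 46.6% of all genes, and 3 were called, all lower, where 0.651% of all genes were. Among those of at least 10 CPM, TK1, thymidine kinase, was lowest, with 155.8, 148.7 and 91.5 CPM in HaloTag and 228.4, 292.9 and 238.4 CPM in Dendra2 libraries (-0.97, SE 0.18, edgeR adjusted p = 0.106). POLE3, of polymerase ε, was at -0.81, and POLD4, the small subunit of polymerase δ, and ASF1B, a histone chaperone, were highest at 0.79 and 0.32. Among 26 regulators of G1/S, activators and inhibitors together, 15 were below 0, against 47.5% of all genes, with a median of -0.24. edgeR called 0 of them, with 8 lower and 3 higher at an unadjusted p under 0.05, against the same shares of all genes, and called 2 in cells low in G2/M transcripts, both lower, where 0.651% of all genes were. E2F1, an activator of G1/S transcription, had 21.0, 25.7 and 22.3 CPM in HaloTag and 35.1, 37.6 and 33.4 CPM in Dendra2 libraries (-0.62, SE 0.13, edgeR adjusted p = 0.117), and CDC25A, the phosphatase that activates CDK2, was at -0.46. CDKN1C (p57), an inhibitor of CDKs, and RBL2 (p130), an RB protein of resting cells, were at 0.76 and 0.43. The 52 G2/M transcripts had 40 below 0 for the tag, against 47.5% of all genes, with a median of -0.15. Of the 52, 0 were called by edgeR and 11 had an unadjusted p under 0.05, all lower, against 9.13% of all genes. For CTD length edgeR called 0 of the 45 and 0 of the 26 in each comparison. Of the 45, 30 were below 0 in 25R against 52R, 30 in 70R against 52R and 20 in 70R against 25R, with 1, 1 and 2 at an unadjusted p under 0.05. Of the 26, 18, 14 and 9 were below 0 in the same comparisons, with 4, 2 and 3 at an unadjusted p under 0.05. Over all genes 12.7%, 4.63% and 12.3% had such a p in these comparisons, and 49.3%, 50.7% and 51.9% were below 0. In 25R against 52R, TIMELESS, of the fork protection complex, was at -0.50 and POLA2 at -0.45, and CDKN1A (p21), a CDK inhibitor induced by p53, was at 0.82, with 197.7 CPM in HaloTag 25R and 90.9 in HaloTag 52R and 125.5 CPM in Dendra2 25R and 88.8 in Dendra2 52R (SE 0.21, edgeR adjusted p = 0.254).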

How the data were processed

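Single-cell RNA of 6 U2OS libraries was measured with 3′ v3.1 chemistry (10x Genomics); the UMI counts per gene and cell were deposited by the authors and name Cell Ranger 6.1.2 as their software, per the file headers, and GRCh38 as their genome, per the submitters' processing notes. Each HaloTag library stands in the labels as 2 numbered samples that share 1 deposited matrix, so 9 samples are 6 libraries. The authors' kinetic tables give a mean, K and CV score per gene with limits; the tool that made them and the unit of K are not given in the sources used here. The 40 genes and all lists were chosen with earlier results of these data known.

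Barcodes under 500 genes or over 20% mitochondrial UMIs were dropped and the rest summed per library. edgeR 4.0.16 (quasi-likelihood, TMM, 18069 genes after its filter on low counts) was fitted as tag plus CTD length, which leaves 2 residual degrees of freedom, with Benjamini-Hochberg adjustment. limma 3.58.1 was fitted to log10 K and log10 mean/K in the same way. DESeq2 1.42.0 was an alternative. CPM values are TMM-scaled except those of markers, of cells divided by G2/M transcripts and of sums. Per-cell values used cells thinned to 5000 UMIs. Doublets were not removed. A ratio over cells with 0 UMIs used a floor of 3 counts. Genes named with values per library had at least 10 CPM and the largest differences, 6 per comparison; promoters are of the 4 members with the largest median ratio of rich to poor cells among those in the promoter table. CCNE2 and MCM3 (tag levels) and DTL, CLSPN, EXO1, CDC45 and RPA2 (ratios of rich to poor cells) were chosen after their values were seen; others are named by role, and some genes are not reported here by name. The scripts were tested on simulated data. Alternatives were other scalings, filters, DESeq2, thinning, cells divided by G2/M transcripts, other kinetic filters and leaving out each library.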

Additional observations from a re-analysis of the deposited data

How the results depend on the processing

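No paired analysis was possible because the replicate numbers in the labels mark entries of 1 library, and each genotype is 1 library; the fits themselves pair libraries of 1 CTD length or 1 tag. DESeq2 called 2 genes for the tag, 1 for 25R against 52R and 1 for 70R against 25R. For the tag, cells low in G2/M transcripts gave 3 calls and a median of -0.47. Leaving out a 25R library there gave 4 calls (median -0.47 without the HaloTag, -0.478 without the Dendra2 library), a 52R library 0 calls (-0.523 and -0.532) and a 70R library 2 calls (-0.599 and -0.604). Cells high in G2/M transcripts gave 0 calls throughout and a median of 0.00261. In the same order it was 0.0385 and 0.0375 without a 25R library, 0.00325 and 0.00216 without a 52R library, and -0.0427 and -0.0433 without a 70R library. Leaving out each library gave 0 to 1 calls in 70R against 25R (1 without Dendra2 25R) and a 70R against 52R median of -0.157 (without HaloTag 70R) to -0.0284 (without Dendra2 70R). MCM7 in 70R against 25R ran from -0.0322, a reversed sign, without HaloTag 70R to 0.602 without Dendra2 70R. Burst frequency for the tag gave 18 calls at 0.5 UMIs per cell or more and 10 when also centred, and 0 to 5 uncentred calls without single libraries. Its 70R against 52R median was -0.00897 under that centred filter and -0.0867 to -0.00612 without single libraries. Burst size for the tag gave 1 call and, centred, 10 with a median of 0.18, and 0 to 1 without single libraries. Its 25R against 52R median was -0.119 under the centred filter and -0.122 to -0.0414 without single libraries, and its 70R against 25R median was 0.147 when centred and -0.00581 (without Dendra2 70R) to 0.117 (without HaloTag 70R). With 10% in place of 25% of cells the mean of the library medians of the ratio between rich and poor cells was 13.2 in HaloTag and 6.38 in Dendra2 libraries, against 8.14 and 3.11. The causes of these shifts were not tested. Scaling by library totals moved the median of all genes to 0.11 and that of the 40 to -0.19 for the tag, and left 7 of 40 below 0 in place of 12 for 70R against 25R. Where leaving out a library left a CTD length with 1, that library was assumed to vary like the others. Each genotype was 1 library, so the spread between cultures could not be measured.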
